A study of Mus musculus with 18 samples.

Results

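Cxcr6 and 5 other genes of innate-like T cells were followed across age in mouse thymocytes: Il2rb, Tbx21, Zbtb16, Eomes and Id2. Probes were taken by these gene names as the array files give them. This found 3 probes, for Cxcr6, Il2rb and Tbx21. Older names and accessions, updated through RefSeq, added 1 probe for Eomes and 3 for Id2. The description rests on 7 probes for 5 of the 6 genes, out of 41174 distinct non-control probes, of which 20355 could be named, for 15513 genes. No probe was found for Zbtb16, which was not analysed here. The genes had been picked with their log ratios on these arrays in view. Their differences with age are therefore given as a description, with no test.

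RNA was taken from thymus cell suspensions of C57BL/6 mice, after straining out connective tissue and lysing red cells, per the labels' protocols. Each of 9 two-colour arrays held Cy3-labelled RNA from 1 mouse of 6, 16 or 24 months, with 3 mice per age, against Cy5-labelled RNA of 1 month thymocytes. The design calls the 1 month material a pool, whereas the sample labels number 9 such mice. It was treated as 1 control, so a value against it leaves out the spread between 1 month mice. The dyes were never swapped, and age against the reference cannot be told apart from Cy3 against Cy5. Differences between the older ages do not carry this limit. All 13 double-positive thymocyte markers examined, such as Cd4, Cd8a and Rag1, were well above background in both channels of every array.

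Most T cells leave the thymus as naive cells, but some acquire memory-like features while still there. They include natural killer T (NKT) cells, mucosal-associated invariant T cells and some gamma delta T cells. Zbtb16 encodes PLZF, the transcription factor that directs these lineages. Tbx21 encodes T-bet and Eomes encodes Eomesodermin, related T-box factors that drive interferon gamma and cytotoxic genes and the receptor chain Il2rb. Il2rb encodes CD122, the beta chain of the IL-2 and IL-15 receptors, needed for the IL-15 signal that keeps NKT and natural killer cells alive. Cxcr6 encodes the receptor for the membrane-bound chemokine CXCL16 and is carried by NKT cells and other tissue-resident T cells. Id2 holds E proteins, factors that bind E-box DNA motifs, away from DNA.

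The 250 bases upstream of the start are shown for 3 members. Cxcr6 had the widest range of log ratios of the members, Tbx21 had the narrowest, and Id2 acts on E-box binding factors. The sequences are from RefSeq (GRCm38.p6) at chr9:123806227-123806476 on the plus strand, chr11:97115332-97115581 on the minus strand and chr12:25096093-25096342 on the minus strand, in that order. Capitals mark an E-box (CANNTG) or a Runx-type motif (TGTGGT), searched on both strands.
Cxcr6: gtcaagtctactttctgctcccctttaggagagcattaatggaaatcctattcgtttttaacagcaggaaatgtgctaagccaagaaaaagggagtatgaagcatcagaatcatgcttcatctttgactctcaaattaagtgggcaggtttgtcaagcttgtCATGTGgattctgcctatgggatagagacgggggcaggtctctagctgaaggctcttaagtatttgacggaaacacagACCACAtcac
Tbx21: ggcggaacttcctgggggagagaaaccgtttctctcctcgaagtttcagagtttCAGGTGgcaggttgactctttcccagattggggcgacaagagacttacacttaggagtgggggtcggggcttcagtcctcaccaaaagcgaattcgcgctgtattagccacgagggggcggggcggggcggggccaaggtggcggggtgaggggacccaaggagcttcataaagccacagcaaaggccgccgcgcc
Id2: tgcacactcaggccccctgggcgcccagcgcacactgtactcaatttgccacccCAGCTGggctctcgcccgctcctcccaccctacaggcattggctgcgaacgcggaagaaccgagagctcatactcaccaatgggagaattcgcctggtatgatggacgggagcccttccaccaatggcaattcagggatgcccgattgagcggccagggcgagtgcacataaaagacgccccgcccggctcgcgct
Each of these windows held 1 E-box, which 66.2% of 32851 RefSeq promoter windows of the same length also hold. The Cxcr6 window also held 1 Runx-type match, with its first base at position -10 from the start, a motif found in 14% of windows. A GATA motif (AGATAA, in 9.99% of windows), a STAT5 motif (TTCNNNGAA, in 7.02%) and a T-box half-site (GGTGTGA, in 3.33%) were in none of these windows or that of Eomes. A looser T-box form, GGTGNNA, was searched first and replaced by the stricter one after its matches had been seen. It matched once in the Tbx21 window, once in that of Eomes, 3 times in that of Id2 and nowhere in that of Cxcr6, and 38.9% of all windows hold it. It is not in capitals here. A match describes the letters only.

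Cxcr6 was the member that differed most with age. Its log2 ratio of the older mouse over the 1 month reference was 1.06, 0.61 and 0.95 in the 3 mice of 6 months. It was 3.38, 3.57 and 1.89 at 16 months and 1.74, 1.44 and 2.06 at 24 months. All 9 older mice lay above the reference, and 2 of the 16 month mice lay above every other animal. The means were 0.88 ± 0.23, 2.95 ± 0.92 and 1.75 ± 0.31 (SD, n = 3 each), or 1.83-fold, 7.71-fold and 3.36-fold. Every 16 month and every 24 month mouse exceeded every 6 month mouse, with a gap of 0.83 log2 units between the nearest animals for 16 months and 0.38 for 24 months. The mean difference was 2.07 between 16 and 6 months and 0.87 between 24 and 6 months, against SDs within the ages compared of 0.67 and 0.27. The 16 and 24 month ranges overlapped, because 16 month replicate 3 lay below 24 month replicate 3. Among 14635 genes with an unsaturated probe, Cxcr6 had the highest mean log ratio at 16 months, ranked 18 at 24 months and 115 at 6 months.

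**Figure D1:**
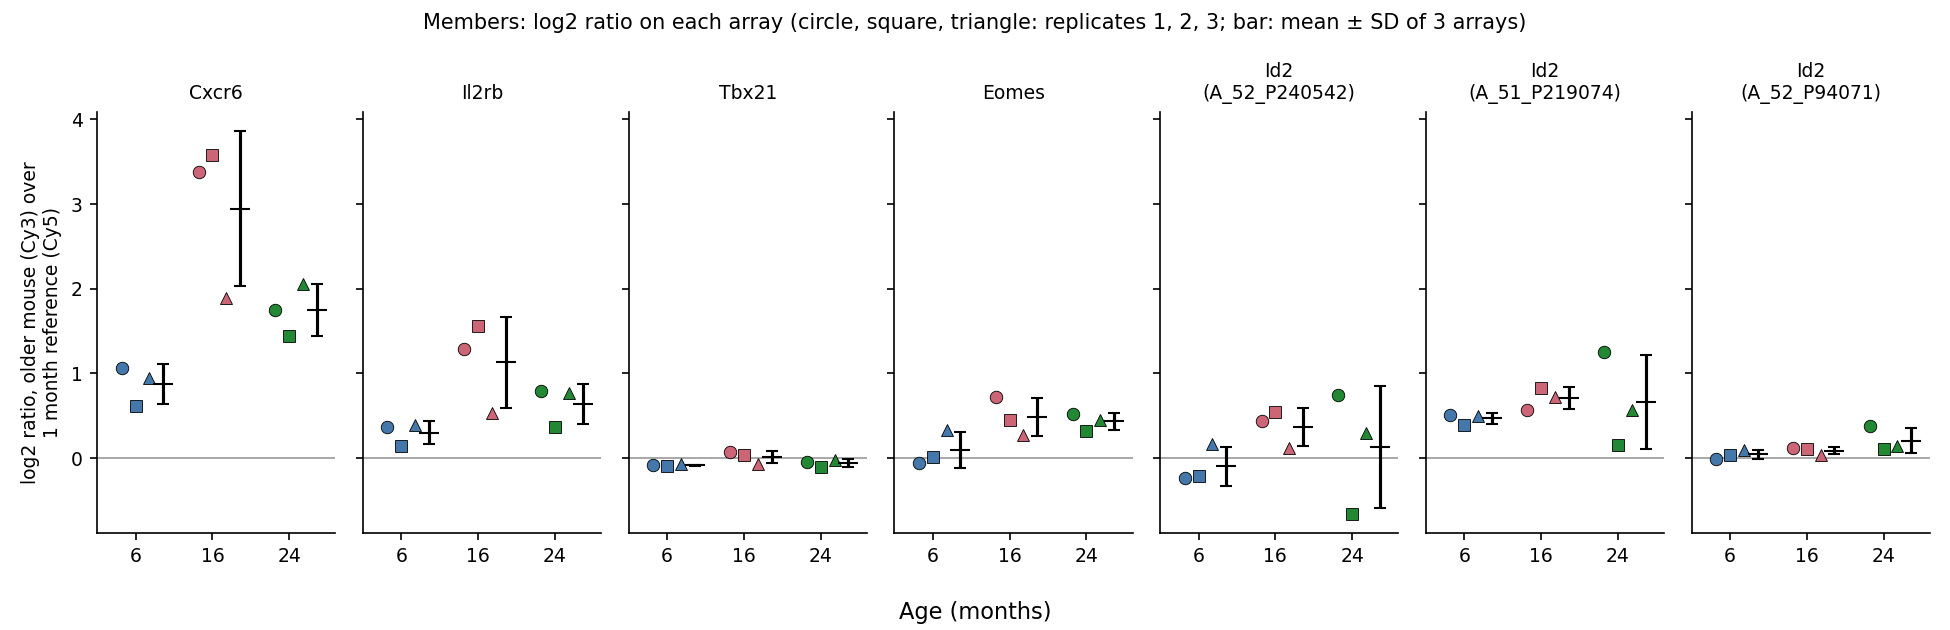
Log2 ratio of the older mouse (Cy3) over the 1 month reference (Cy5) for each of the 7 member probes, with age in months on the x axis; points are arrays and bars the mean ± SD of 3 arrays. Cxcr6 reaches 3.57 at 16 months, 16 month replicates 1 and 2 are also the highest for Il2rb, and Tbx21 stays between -0.10 and 0.07.

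Both channels of Cxcr6 were read separately. Its processed Cy3 signal was 1181 to 1688 at 6 months, 3336 to 9722 at 16 months and 1291 to 3323 at 24 months, while its Cy5 signal stayed between 475 and 899. Relative to the median of the tested probes of each channel, the log2 level in Cy3 had SDs of 0.11, 0.81 and 0.49 within the 3 mice of 6, 16 and 24 months. Over the 9 Cy5 channels, treated as 1 control, the SD was 0.17, above that of the 6 month mice. Whether this SD includes a spread between 1 month mice is open, since the design and the labels differ. In these bulk suspensions, more cells that express a gene and more RNA per cell cannot be told apart. This holds for every gene below.

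Il2rb showed the same order of ages at less than the size of Cxcr6. The log2 ratios were 0.37, 0.14 and 0.39 at 6 months, 1.29, 1.56 and 0.53 at 16 months, and 0.79, 0.37 and 0.76 at 24 months. As for Cxcr6, all 9 lay above 0, and 16 month replicates 1 and 2 were the highest. The means were 0.30 ± 0.14, 1.13 ± 0.53 and 0.64 ± 0.24 (SD, n = 3 each), or 1.23-fold, 2.19-fold and 1.56-fold. The 16 month mice exceeded the 6 month mice by 0.83 on average without overlap, the nearest animals being 0.15 apart. The 24 month range overlapped both other ages. The SDs of its Cy3 level within ages were 0.28, 0.41 and 0.33, and that of its 9 Cy5 readings was 0.22.

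**Figure D2:**
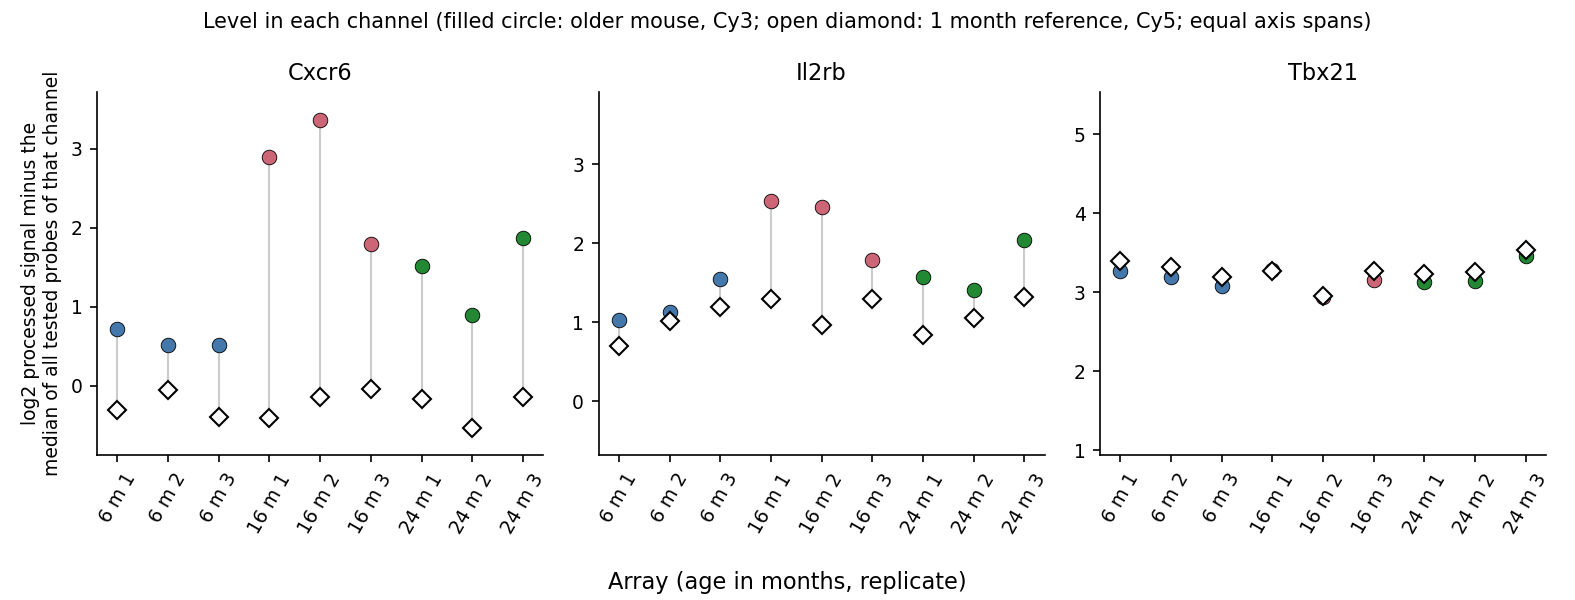
Log2 processed signal of Cxcr6, Il2rb and Tbx21 minus the median of all tested probes of the same channel, for each array; filled circles are the older mouse (Cy3), open diamonds the 1 month reference (Cy5), and the 3 axes span equal lengths. The diamonds of Cxcr6 vary with an SD of 0.17 and its circles with SDs of 0.11, 0.81 and 0.49 within 6, 16 and 24 months, while both channels of Tbx21 nearly coincide on every array.

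Cxcr6 and Il2rb followed each other across animals. Their log ratios had a Pearson r of 0.97 over the 9 arrays (Spearman rho 0.88) and of 0.96 after removing each age's mean. Without 16 month replicates 1 and 2, which lie farthest from the median, r was 0.88. All arrays share the 1 month reference type, so these values describe the arrays and carry no p. Cxcr6 and Il2rb had both been picked with these log ratios in view. Of the 14635 genes, Il2rb was the one most like Cxcr6, nearly level with Pgm1 (r of 0.9707 and 0.9705). The next were Pgm1 (phosphoglucomutase), Cyp4f18 (a cytochrome P450), Nkg7 (a cytotoxic granule protein), Snx14 (a sorting nexin), Dph5 (diphthamide synthesis), Sgsh (a lysosomal sulfatase), Ampd2 (AMP deaminase), Rgs12 and Orai3 (a calcium channel). Their r ran from 0.97 down to 0.95. After Cxcr6, the genes most like Il2rb were Rnf43 and Gusb (r of 0.97 and 0.96). Likeness here is of shape, not of size. Nkg7 had mean log ratios of 0.42, 1.45 and 0.90 at 6, 16 and 24 months, whereas those of Pgm1 were -0.24, -0.02 and -0.16.

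Haemoglobin RNA moved with Cxcr6 across the arrays. The mean log2 ratio of 5 haemoglobin probes was -1.91, -1.89 and -1.18 at 6 months, 1.94, 1.35 and -0.66 at 16 months, and -1.81, 0.45 and 1.43 at 24 months. Its r with Cxcr6 was 0.81 over 9 arrays (Spearman rho 0.80), 0.63 within ages and 0.78 without the 2 arrays farthest from the haemoglobin median. For Il2rb these were 0.72, 0.43 and 0.67. The part of haemoglobin in either result was not tested. The 3 arrays highest in haemoglobin were 16 month replicates 1 and 2 and 24 month replicate 3. They were also the 3 highest in Cxcr6, at 3.38, 3.57 and 2.06. The 24 month replicate 1, with haemoglobin at -1.81, had a Cxcr6 log ratio of 1.74, above all 3 mice of 6 months. With haemoglobin as a covariate the Cxcr6 means were 1.35, 2.70 and 1.74, and the difference between 16 and 6 months was 1.35. With the 3 haemoglobin-richest arrays left out and 1 mouse of 16 months remaining, Cxcr6 was 0.88, 1.89 and 1.59, and the 16 month difference was 1.02. The corresponding difference for Il2rb was 0.53 with the covariate and 0.23 without those arrays.

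**Figure D3:**
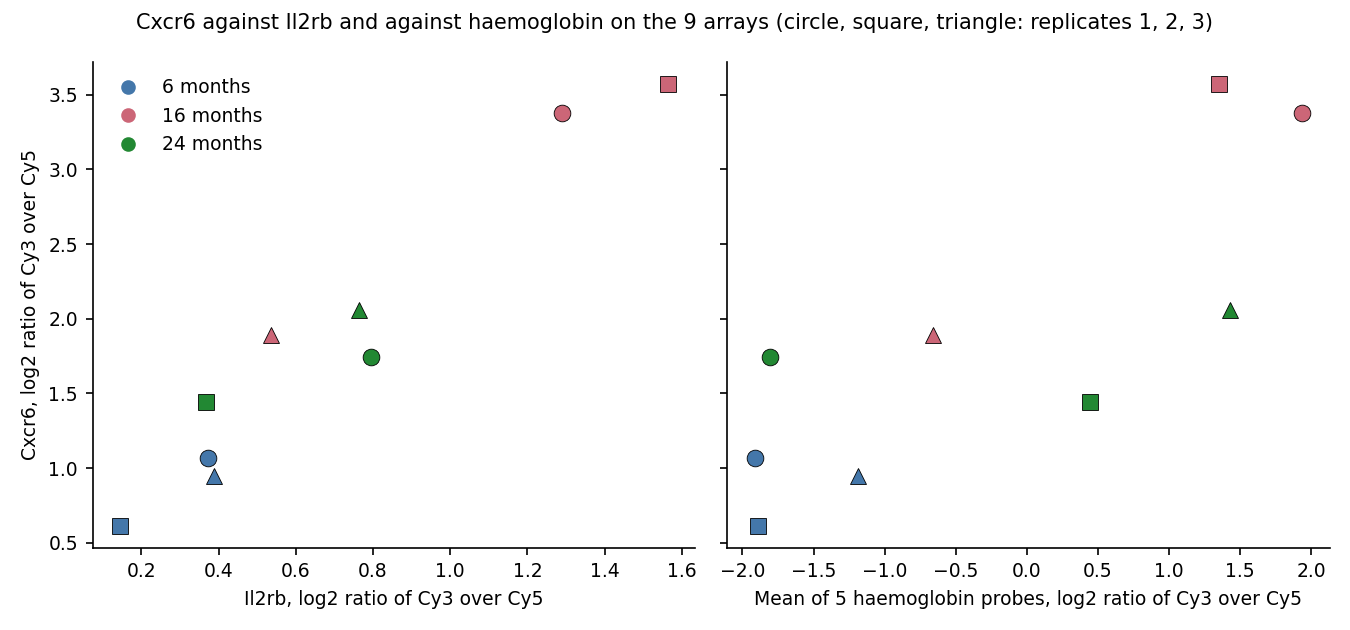
Log2 ratio of Cxcr6 on the y axis against that of Il2rb (left) and against the mean of 5 haemoglobin probes (right), one point per array, coloured by age. The points of Cxcr6 and Il2rb lie close to a line (r = 0.97). The 3 arrays highest in haemoglobin are also the 3 highest in Cxcr6. The 24 month replicate 1 has haemoglobin at -1.81 and a Cxcr6 log ratio of 1.74.

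Tbx21 spanned the narrowest range of the members. Its log2 ratio was -0.09, -0.10 and -0.08 at 6 months, 0.07, 0.04 and -0.07 at 16 months, and -0.04, -0.10 and -0.02 at 24 months. All 9 values lay within 0.18 log2 units of each other. The 16 month mice stood above the 6 month mice without overlap, but by a mean of 0.10 and with 0.0095 between the nearest animals. The SD of its level was 0.15 over the 9 Cy3 channels, differences between ages included, and 0.16 over the 9 Cy5 channels. Its processed signals were 6111 to 10014 in Cy3 and 6571 to 10557 in Cy5. Its mean Cy5 level, 3.27 log2 units above the median of tested probes, was the highest of the members. Whether this probe reads only Tbx21 was not tested. The small differences of Tbx21 still followed Cxcr6 in shape, with r = 0.93 over 9 arrays and 0.73 without 16 month replicates 1 and 2.

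Eomes, listed in the files under an accession and described as Tbr2, had log2 ratios of -0.06, 0.01 and 0.33 at 6 months, 0.72, 0.45 and 0.28 at 16 months, and 0.52, 0.32 and 0.45 at 24 months. The means were 0.09 ± 0.21, 0.48 ± 0.23 and 0.43 ± 0.10 (SD, n = 3 each). All 6 mice of 16 and 24 months were above the reference, but the ranges of every pair of ages overlapped. Its processed signals were 164 to 335 in Cy3 and 155 to 273 in Cy5, on all 9 arrays well above background. The genes most like Tbx21 in shape were Dhrs7, Derl1 and Rabepk (r of 0.99 to 0.98). Those most like Eomes were Uhrf2, Ctns and Mogat1 (r of 0.95 to 0.94).

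The 3 Id2 probes gave different sizes, and only 1 of them lay above the reference on all 9 arrays. That probe, A_51_P219074, had log2 ratios of 0.51, 0.39 and 0.50 at 6 months, 0.57, 0.83 and 0.72 at 16 months, and 1.25, 0.16 and 0.57 at 24 months. Its means were 0.47 ± 0.06, 0.71 ± 0.13 and 0.66 ± 0.55 (SD, n = 3 each), and all 16 month mice lay above the 6 month mice, the nearest by 0.06. Probe A_52_P240542 ranged from -0.24 to 0.17 at 6 months, from 0.12 to 0.54 at 16 months and from -0.66 to 0.75 at 24 months. Probe A_52_P94071 stayed between -0.01 and 0.37 on all arrays. The probes thus gave different sizes of the difference from the reference, but in each the highest 24 month array was replicate 1 and the lowest replicate 2. The genes most like A_52_P94071, the Id2 probe with the highest mean signal, were Krt17, Olfr1440 and Ubd (r of 0.97 to 0.96).

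Set against the whole array, 4 of the 7 member probes were higher at 16 than at 6 months without overlap (Cxcr6, Il2rb, Tbx21 and Id2 A_51_P219074), where 7.25% of 37433 tested probes were. For 24 against 6 months it was 2 of 7 (Cxcr6 and Id2 A_52_P94071) and 5.9% of all probes. All 9 log ratios were above 0 for 3 of 7 (Cxcr6, Il2rb and Id2 A_51_P219074) and for 12.7% of all probes. All 7 probes had passed the filter on dim probes. In the limma fit across all probes (Benjamini-Hochberg adjusted p under 0.05), 0 of the 7 were called against the reference at 6 months, where 7.62% of probes were called higher and 4.76% lower. At 16 months 4 were called higher and 0 lower (11.4% and 6.6% of all probes). At 24 months 5 were called higher and 0 lower (11.6% and 13.3% of all probes). The share of all calls that were higher was 61.6%, 63.4% and 46.7% at 6, 16 and 24 months. It was 46.8%, 41.4% and 44.1% with median centring, 47%, 45.7% and 39.7% from the deposited scores, and 53.8%, 53.2% and 46.2% with loess. Since the members were chosen on these contrasts, nothing is read from these counts. Between ages limma called 0 of the 7 and 0 of all probes, 0% each for 16 against 6, 24 against 6 and 24 against 16 months, while 2389, 3410 and 1785 probes had an unadjusted p under 0.05.

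Of 21 tested genes that T-bet and Eomes are known to act on, 12 were higher at 16 months than the reference and 0 lower. This list and those below were drawn up with earlier results of these data known, so their counts are a description. Over all probes 11.4% were higher and 6.6% lower at 16 months. These shares were 7.62% and 4.76% at 6 months, and 11.6% and 13.3% at 24 months. The counts of this list and of each list below are to be read against the shares of the same age. Where a list has few genes, or its share is near these, its count is not a result about the list. The list's median log2 ratio was 0.40, beside -0.01 for all tested probes. The largest rises were in Il18r1, the IL-18 receptor chain (1.90, SE 0.45, adjusted p = 0.025), Nkg7 (1.45, SE 0.18, adjusted p = 0.0032), the chemokine Ccl5 (1.23, SE 0.28, adjusted p = 0.022) and the chemokine receptor Cxcr3 (0.88, SE 0.18, adjusted p = 0.017), all by limma. Nkg7 was 0.58, 0.26 and 0.44 at 6 months, 1.82, 1.61 and 0.93 at 16 months, and 1.09, 0.51 and 1.11 at 24 months, so the 16 month mice were again led by replicates 1 and 2. Il18r1 varied more within ages, from 1.01 to 2.70 at 16 months and from 0.20 to 2.76 at 24 months. At 6 months 0 of the 21 genes were called, and at 24 months 5 were higher and 2 lower. Those lower, named after their values were seen, were the pore-forming Prf1 (-0.57) and the receptor Klrg1 (-0.66). No difference between ages passed for any of these genes. The count of 12 was 4 without 16 month replicate 1, 3 without replicate 2 and 9 without replicate 3, and Il18r1 and Ccl5 lost their call without replicate 1 or 2, Cxcr3 without replicate 2. Calls over all probes fell too, from 6749 to 3860, 1242 and 3449 in these 3 fits. At 24 months, leaving out replicate 1, 2 or 3 took 9341 calls to 3509, 4103 and 7058. At 6 months it took 4633 to 1666, 300 and 2530. Counts with an array left out, here and for the lists below, are to be read against these losses. With haemoglobin as a covariate the list's 16 month count was 4, and 4540 of all probes were called. Without the 3 arrays highest in haemoglobin 1 mouse of 16 months remained, too few for a count to be read. At 24 months the count of 5 was 2 without replicate 1 and 3 without replicate 3, and the lower count was 1 without replicate 1 or 2.

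**Figure D4:**
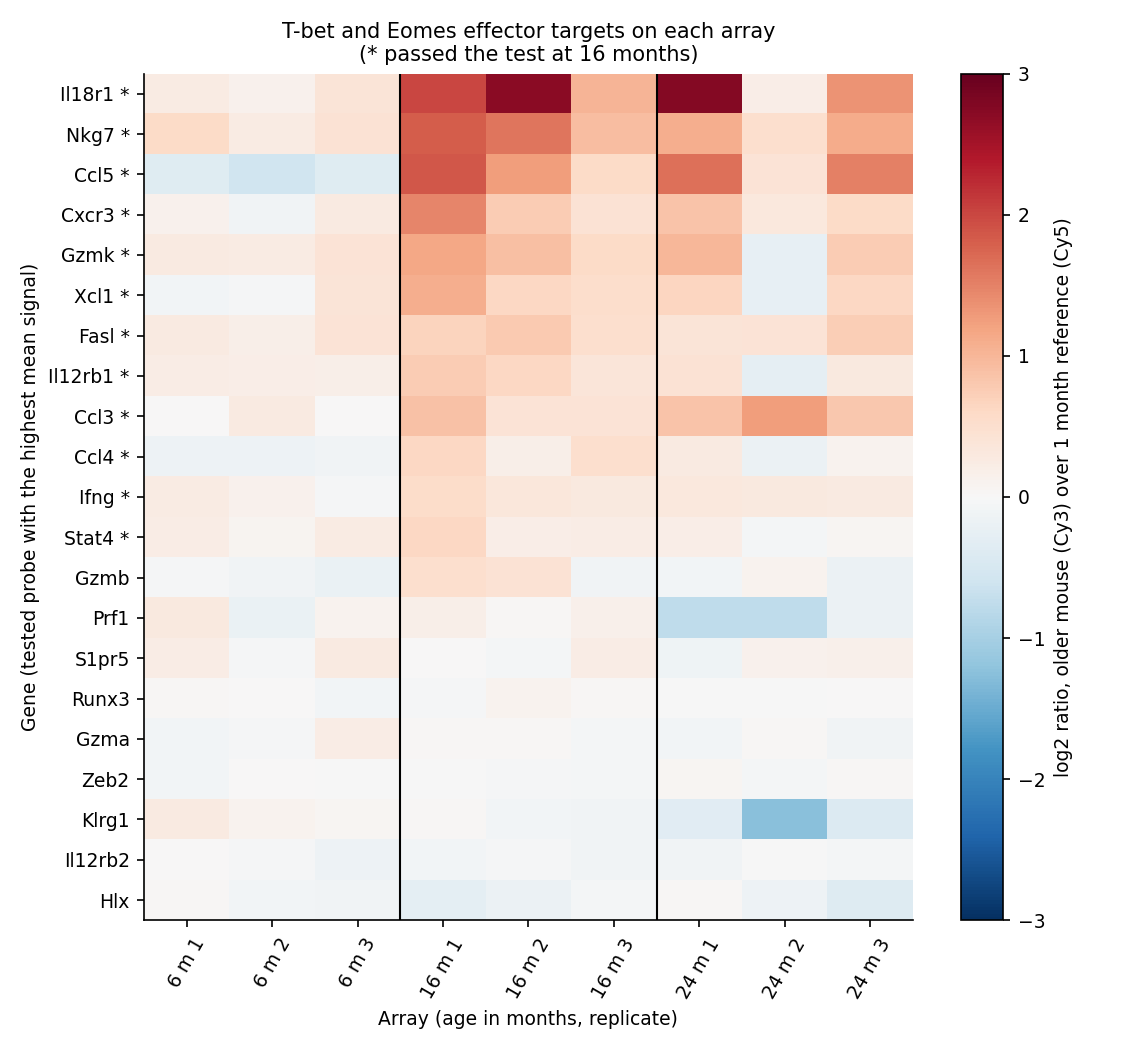
Log2 ratio of the older mouse over the 1 month reference for 21 tested T-bet and Eomes target genes (rows) on each array (columns, grouped by age in months); red is above and blue below the reference, and stars mark the 12 genes that passed at 16 months. The darkest cells are Il18r1 at 2.70 and 2.76, and in the 6 month columns Ccl5 is at -0.35, -0.59 and -0.35 and 0 genes passed.

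Cxcl16, the ligand of Cxcr6, is named for its role. It had log2 ratios of -0.06, 0.12 and 0.19 at 6, 16 and 24 months and passed at no age. Of 12 genes on the list of the ligand and of other chemokine receptors, 3 were higher at 16 months and 0 lower, with a median of 0.16. They were Ccr2 (1.06, SE 0.13, adjusted p = 0.0033), Cxcr3 as above, and Adam10, the protease that sheds CXCL16 (0.69, SE 0.18, adjusted p = 0.037), by limma. Ccr2 was 0.32, 0.39 and 0.43 at 6 months, 0.94, 1.13 and 1.12 at 16 months, and 1.22, 0.54 and 1.30 at 24 months, so each 16 and 24 month mouse exceeded the 6 month mice. At 6 months 2 of the 12 were higher and at 24 months 4. Without 16 month replicate 2 the 16 month count was 1, and Adam10 lost its call without any of the 3. The 6 month count was 0 without 6 month replicate 1 or 2, and the 24 month count 1 without 24 month replicate 1 or 2.

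Of the partners and signals of Il2rb, 4 of 13 tested genes were higher at 16 months and 1 lower, with a median log2 ratio of 0.13. Il2rg, the common gamma chain that pairs with CD122, was 0.61, 0.51 and 0.14 at 6 months, 1.14, 0.83 and 0.67 at 16 months, and 0.78, 0.53 and 0.93 at 24 months. Its mean at 16 months was 0.88 (SE 0.12, limma adjusted p = 0.0046). Il2ra, the alpha chain, was at 0.69, the signal transducer Stat5a at 0.55 and the receptor Il21r at 0.33. Stat5b, named after its value was seen, was the gene that was lower (-0.29). The lower count was 0 when 16 month replicate 2 or 3 was left out. It was also 0 on leaving out replicate 1 of 24 months, and on leaving out replicate 2 of 6 months. Il15ra, the alpha chain of the IL-15 receptor, was named for its role, outside the naming rule, and had log2 ratios of 0.03, 0.04 and 0.02 with no call. At 6 months 1 gene was higher and 2 lower, and at 24 months 3 were higher and 2 lower. The 16 month count of higher genes was 1 without replicate 2, where Il2ra, Stat5a and Il21r lost their calls. Il21r lost its call without replicate 1 too, and Il2ra and Stat5a without replicate 3. At 24 months the higher count was 1 without replicate 1 or 2, and the lower count 1 without replicate 2 or 3. At 6 months the lower count was 0 without any 1 of the 6 month arrays and 1 without any 16 month array or 24 month replicate 3. The higher count there was 0 without 6 month replicate 1 or 2, and 2 without 16 month replicate 1 or 24 month replicate 2.

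A list of genes that act in specifying PLZF lineages was measured in place of Zbtb16. Of 24 tested, 4 were higher and 2 lower at 16 months, shares near those of all probes, with a median of 0.10. The transcription factors Myb (0.52) and Gata3 (0.40) were among those higher, and Hivep3, a zinc finger protein, was lower (-0.38). The counts were 3 higher and 0 lower at 6 months and 7 higher and 2 lower at 24 months. The 16 month count of higher genes was 1 without replicate 2 and 2 without replicate 3, and that of lower genes 0 without replicate 1 or 2 and 1 without replicate 3, and also 1 on leaving out replicate 1 of 24 months, or either replicate 2 or 3 of 6 months. Hivep3 lost its call without replicate 1 or 2, Gata3 without any 1 of the 3, and Myb without replicate 2 or 3. At 24 months the higher count was 3 and the lower 0 without replicate 1 or 2, and the lower 1 without replicate 3. At 6 months the higher count was 1 without replicate 2. With median centring in place of dye normalization by intensity, the means of Myb and Gata3 at 16 months turned to -0.23 and -0.16.

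Among the other Id proteins, the E proteins and their partners, 1 of 9 genes was higher at 16 months. This was Lyl1, a haematopoietic partner of E proteins, at 0.50 (SE 0.10, limma adjusted p = 0.018), and its call was lost without 16 month replicate 1 or 2. The list's median was 0.11. At 6 months 1 gene was lower (Id4, -1.11) and at 24 months 1 was higher (Id3, 0.49), both named after their values were seen. Id4 lost its call without 6 month replicate 1 or 2, and Id3 without 24 month replicate 1 or 2.

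Markers of other cells in the suspension were measured beside these genes, and their part in the results was not tested. Of 19 natural killer and innate receptor genes tested, 3 were higher at 16 months and 0 lower, a share near that of all probes. The median was 0.08, or 0.21 with all tested probes of a gene averaged. Klrk1, which encodes NKG2D, was at 1.40 (SE 0.18, limma adjusted p = 0.0035) and Klra7, a Ly49 receptor, at 0.82. The log2 ratio of the list's summed signal was between -0.01 and 0.03 at 6 months, 0.04 and 0.21 at 16 months, and 0.04 and 0.29 at 24 months. Klrb1c, which encodes NK1.1 and was named for its role outside the naming rule, had means of -0.03, 0.15 and 0.02 and passed at no age. Among gamma delta genes 3 could be tested, and Cd163l1 was higher at 16 months (1.51) and 24 months (3.01). Its 16 month call was lost without 16 month replicate 2 or 3, 24 month replicate 3 or any 6 month array. The summed ratio of that list ran from 0.21 to 0.39 at 6 months, 0.21 to 1.74 at 16 months and 1.76 to 2.46 at 24 months, highest at 24 months. The median of its 3 tested genes was instead highest at 16 months, at 0.10, 0.54 and 0.27 for 6, 16 and 24 months.

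For the erythroid list, 0 of 8 genes tested passed at any age, with Hba-a1 at 1.38 and Alas2 at 1.12 at 16 months. Its summed log2 ratio ran from -2.20 to -1.41 at 6 months, -0.81 to 2.50 at 16 months and -2.04 to 1.72 at 24 months. The plasma cell list had 5 of 9 genes higher at 16 months, led by Jchain (2.54), and summed ratios of 0.10 to 0.33, 0.86 to 1.89 and 0.90 to 1.77 at the 3 ages. Its count was 1 without 16 month replicate 1 or 2 and 3 without 6 month replicate 2 or 3, and Pou2af1 (0.75) lost its call without either. Macrophage markers had 2 of 10 higher, Lyz1 (1.29) and Lyz2 (0.99), with summed ratios of -0.39 to -0.16, 0.41 to 1.25 and 0.01 to 1.21. Granulocyte markers had 0 of 8 called at 16 months, with S100a8 at -1.42 and Retnlg at -0.47, and only 16 month replicate 2 was above 0 in the summed ratio, at 1.94. Mature T cell markers had 2 of 9 higher, Ly6c1 (1.20) and Itgb7 (0.76), and B cell markers 2 of 9, Blnk (1.23) and Cd79b (0.66). Dendritic cell markers had 2 of 8 higher, Cd74 (1.30) and H2-Eb1 (1.18), and stromal markers 2 of 8, Dcn (1.62) and Pecam1 (0.68). Of 6 regulatory T cell markers, Il2ra was higher and Tnfrsf4 (-0.35) lower. Tnfrsf4 lost its call without any 1 of the 16 month arrays or 6 month replicate 2, and Il2ra without 16 month replicate 2 or 3. Thymic epithelial markers had 3 of 9 lower, led by Ccl25 (-2.20) and Prss16 (-1.55), and double-positive markers 4 higher and 2 lower of 13, among them Cd8b1 and Dntt, whose spots were saturated on at least 1 array. Without 16 month replicate 2 the double-positive counts were 2 higher and 0 lower, and Dntt lost its call without any 1 of the 16 month arrays. The B cell, mature T cell and dendritic counts were all 0 without 16 month replicate 1 and without replicate 2, the dendritic count also without replicate 3, and macrophages had 0 without replicate 2 and 4 without 24 month replicate 2. Stromal genes had 1, 1 and 0 without 16 month replicates 1, 2 and 3. List medians at 16 months were 0.54 for gamma delta, 0.53 for plasma, 0.51 for mature T, 0.33 for stromal, 0.24 for B, 0.20 for dendritic, 0.13 for macrophage and double-positive, 0.10 for erythroid, -0.09 for regulatory T, -0.24 for epithelial and -0.27 for granulocyte genes. With all tested probes of a gene averaged, the mature T median was 0.28.

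The mean of Cxcr6 was highest at 16 months, then at 24 and then at 6 months, under each of the alternatives run. The mean at 16 months was 2.54 with normexp background correction and loess, 2.24 with median centring and 2.85 from the deposited scores, against 2.95 from the processed signals. At 6 months the same settings gave 0.60, 0.51 and 0.85 against 0.88, and at 24 months 1.30, 1.08 and 1.77 against 1.75. For Il2rb the 16 month mean was 1.00, 0.65 and 1.05 against 1.13, while its 6 month mean turned to -0.06 with median centring. Leaving out each 16 month mouse in turn gave Cxcr6 means of 2.63 to 3.47 and Il2rb means of 0.91 to 1.43.

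**Figure D5:**
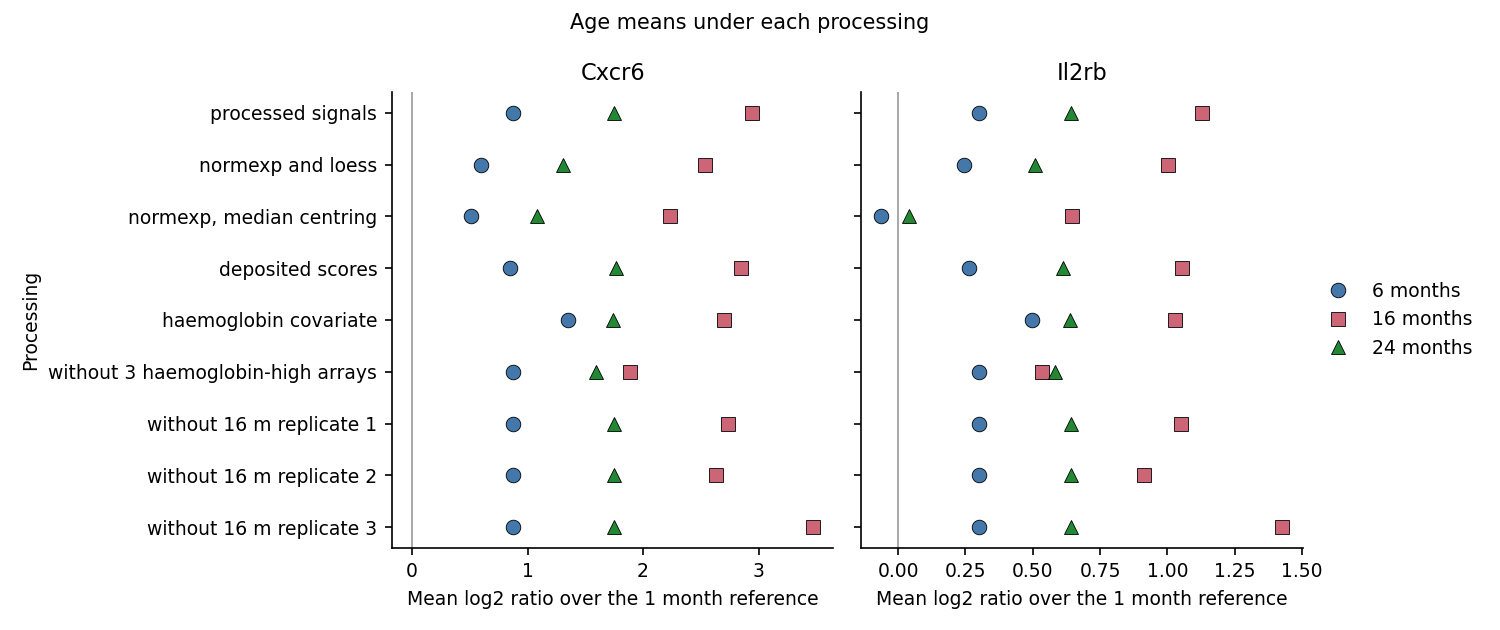
Mean log2 ratio of Cxcr6 (left) and Il2rb (right) over the 1 month reference at 6, 16 and 24 months (colours and shapes) under 9 ways of processing (y axis). The 16 month mean of Cxcr6 is the highest of the 3 ages in each, between 1.89 and 3.47, and the Il2rb means of 16 and 24 months change order without the 3 arrays highest in haemoglobin.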

How the data were processed

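Intensities were read from 9 two-colour Agilent arrays, whose scanner output was deposited once per channel as identical pairs. Background subtraction and LOWESS dye normalization (smooth factor 0.25) were done by the authors in Feature Extraction, version 7.5.1 per the file headers and 7.1 per the submitters' processing notes. The deposited score of each sample is the z-score of log10 processed signal within a channel (largest difference 5.0e-10).

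From the deposited intensities, log2(Cy3/Cy5) was taken, outlier spots were dropped and spots of a probe averaged. A probe was tested if every Cy3 channel of at least 1 age, or all 9 Cy5 channels, read well above background. Means per age were fitted with limma 3.58.1 (R 4.3.3) over 37433 probes with Benjamini-Hochberg adjustment (threshold 0.05). Replicates are separate mice. Symbols came from the files or RefSeq (GRCm38.p6), 1 tested probe per gene, that with the highest mean signal. Between 79.6% and 95.4% of features were well above background, and the number of arrays limits precision.

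The members and gene lists were chosen with earlier results of these data known, and the motifs after the sequences were seen. Named genes are all members, the 10 genes most correlated with Cxcr6 and 3 with each other member, up to 4 called genes with the largest 16 month difference per pathway list and 2 per marker list, or as values the 2 with the smallest p; 1 gene that this rule names is not reported here, and genes outside it are marked where named. Python 3.11.15, pandas 2.3.3 and matplotlib 3.10.9 were used, and the fit was tested on simulated data. Alternatives were other normalizations, filters, outlier spots kept, a haemoglobin covariate, a replicate block and left-out arrays.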

Additional observations from a re-analysis of the deposited data

Results flagged for a closer look

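For 7 named genes all 3 mice of 6 months lay below the 1 month reference and all 3 of an older age above it. The limma adjusted p of the difference between ages did not pass for any of them. The share of all tested probes with this pattern was not counted, so nothing is read from the number of genes. Dph5 and Ampd2 had been named for their likeness to Cxcr6, and Ctns to Eomes, in these same log ratios. Ccl5 differed by 1.66 between 16 and 6 months (from -0.43 to 1.23, adjusted p = 0.769) and by 1.62 between 24 and 6 months (adjusted p = 0.422). Lyz1 differed by 1.37 and 1.06 in these comparisons (adjusted p = 0.769 and 0.505 by limma). Lyz2 differed by 1.39 between 16 and 6 months, Lyl1 by 0.68, Dph5 by 0.35 and Ampd2 by 0.19, each with a limma adjusted p of 0.769. Ctns differed by 0.11 and 0.10 (adjusted p = 0.77 and 0.647 by limma).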

How the results depend on the processing

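Among the recomputed member log ratios 608 moved by less than the SD between replicates, 57 moved more and 7 turned sign. The 608 include settings that could not move a mean that far, namely leaving out 1 array and the replicate block. Of 42 values, median centring left 16 within the SD, moved 19 and turned 7. Leaving out the 3 arrays highest in haemoglobin moved 14 of 42, the haemoglobin covariate 13, loess 6 and the deposited scores 5. Cxcr6 at 6 months was 0.60 with loess, 0.51 with median centring and 1.35 with the haemoglobin covariate; at 24 months it was 1.30 with loess and 1.08 with centring. Without the 3 arrays highest in haemoglobin Cxcr6 at 16 months was 1.89 and its difference from 6 months 1.02, against 1.35 with the covariate. Il2rb at 6 months was -0.063 with centring and 0.50 with the covariate, and 0.042 at 24 months with centring. Without those 3 arrays it was 0.53 at 16 months, and its difference from 6 months was 0.23. Centring also turned Id2 probe A_52_P240542 at 16 months (-0.14), A_51_P219074 at 6 and 24 months (-0.0029 and -0.0085), A_52_P94071 at 16 and 24 months and in 24 against 6 months (-0.42, -0.65 and -0.16), and at 16 months Il21r (-0.17), Myb (-0.23), Gata3 (-0.16) and Dntt (-0.075). The cause was not tested.

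Probes called against the reference numbered 4633, 6749 and 9341 at 6, 16 and 24 months. They numbered 19628, 16648 and 26551 with centring. Without the 3 arrays highest in haemoglobin they numbered 2632 and 3656 at 6 and 24 months. At 16 months this left 1 mouse, so no count is given. With only the arrays of the ages compared, where fewer arrays were fitted, they numbered 1192, 3554 and 0. The covariate gave 84 at 6 months. Leaving out 1 array gave 300 to 5426, 1242 to 7739 and 3509 to 8713. Between ages the counts stayed at 0 except 1 probe in 16 against 6 months without 16 month replicate 3, in 24 against 6 months without 24 month replicate 1 and in 24 against 16 months without 6 month replicate 3. The T-bet and Eomes target count of 12 was 4 with the covariate, 5 with only the ages compared, and 3 to 12 with 1 array left out. Same-numbered arrays had correlations of deviations of -0.31 to 0.10, and differently numbered ones of -0.26 to 0.33. With 3 arrays per age these values cannot exclude a pairing, and the main fit used none. The replicate block gave 2442, 5067 and 7458 probes and 12 target genes. A block for slide or scan date was not run. Averaging all tested probes of a gene moved 6 list medians. Of 34 named list genes called at 16 months, 24 lost the call without 16 month replicate 2.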
